A study of Mus musculus with 10 samples.

Results

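The p53 target genes examined here are 10 genes that the transcription factor p53 is known to switch on: Cdkn1a, Mdm2, Bax, Bbc3, Ccng1, Eda2r, Phlda3, Zmat3, Trp53inp1 and Sesn1. They were taken as a fixed list of names, because vector genomes can evoke a DNA damage response. This list and the other gene lists below were chosen with earlier results of these data known. Each name matched 1 of the 57010 rows of the count table through its GENCODE M21 symbol. Of the 10, 9 had enough counts to be tested and Eda2r had no count at all. The RNA came from whole retinas of mice, which were 6 to 8 weeks old, and was collected at day 14 after vector injection into the vitreous. In one group 5 mice received AAV2-GFP, the widely used adeno-associated virus serotype AAV2 carrying green fluorescent protein, and in the other 5 mice received AAV206-GFP, the vector AAV206 with the same reporter, which the study's title describes as directed at the retinal pigment epithelium. All mice in both groups therefore carried a vector and a GFP transgene. Strain, sex, vector dose and the promoter that drove GFP are not given in the sources used here. Each value compares 2 injected groups, since retinas without a vector were not analysed here.

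p53 is kept low in unstressed cells by Mdm2, which marks it for destruction. After DNA damage, kinases such as ATM and CHK2 free p53 from Mdm2, and it then raises genes that stop the cell cycle, start apoptosis or limit oxidative stress, as well as Mdm2 itself, which closes a feedback loop. In the retina, p53 and Bax are best known from the death of ganglion cells and photoreceptors, and most retinal neurons no longer divide. The single-stranded genome of AAV, with its hairpin ends, is known to engage DNA repair proteins of the host cell.

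p53 binds DNA as a tetramer on a pair of 10-base half-sites that are separated by 0 to 13 bases. RefSeq promoter windows (assembly GRCm38.p6, 250 bases before to 50 after a start site) were given for 8 of the 10 members, all but Zmat3 and Trp53inp1, in 12 windows because some genes have several start sites. A pair of p53 half-sites with at most 2 mismatches in all, read on both strands at once because the consensus is its own reverse complement, lay in 4 of the 12 windows (33.3%), each of another gene, and in 10.1% of all 32851 windows. A single half-site without mismatch lay in 5 of the 12 windows (41.7%), those of the same 4 genes and that of Mdm2, and in 8.36% of all windows. The 250 bases before the start site are shown for the 4 genes with a pair, 5′ to 3′, because this motif is how p53 recognises its targets; capitals mark the pair with the fewest mismatches.
Cdkn1a, chr17:29090729-29090978, plus strand: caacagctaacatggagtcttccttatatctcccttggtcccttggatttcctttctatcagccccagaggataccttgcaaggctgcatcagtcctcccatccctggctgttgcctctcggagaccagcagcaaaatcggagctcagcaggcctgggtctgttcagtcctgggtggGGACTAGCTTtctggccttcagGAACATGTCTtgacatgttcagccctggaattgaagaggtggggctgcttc
Ccng1, chr11:40755287-40755536, minus strand: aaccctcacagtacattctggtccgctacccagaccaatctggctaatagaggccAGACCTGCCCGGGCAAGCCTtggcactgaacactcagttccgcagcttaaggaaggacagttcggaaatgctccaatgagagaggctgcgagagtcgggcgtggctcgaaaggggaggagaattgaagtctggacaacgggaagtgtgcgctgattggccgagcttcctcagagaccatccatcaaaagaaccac
Bax, chr7:45466899-45467148, minus strand: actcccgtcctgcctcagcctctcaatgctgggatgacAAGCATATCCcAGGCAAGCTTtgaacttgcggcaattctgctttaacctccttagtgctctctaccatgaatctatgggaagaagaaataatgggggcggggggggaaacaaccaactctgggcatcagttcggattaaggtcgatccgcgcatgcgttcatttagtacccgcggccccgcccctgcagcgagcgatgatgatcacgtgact
Sesn1, chr10:41887189-41887438, plus strand: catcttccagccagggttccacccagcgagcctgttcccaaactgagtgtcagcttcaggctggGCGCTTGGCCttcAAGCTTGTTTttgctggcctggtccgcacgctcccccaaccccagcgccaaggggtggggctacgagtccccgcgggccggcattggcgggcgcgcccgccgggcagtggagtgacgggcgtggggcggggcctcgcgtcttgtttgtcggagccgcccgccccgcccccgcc
These windows held 3 pairs in Cdkn1a, 2 in Ccng1, 4 in Bax and 2 in Sesn1, and only the marked pair of each is described. In Cdkn1a the marked pair had 0 mismatches, began 73 bases before the start site of its window and had a spacer of 12 bases. It lay in the upstream of the 2 Cdkn1a windows. The other window, whose 250 bases before the start site end at chr17:29093768, held none. The pair of Ccng1 had 1 mismatch and no spacer, that of Bax 1 mismatch and a spacer of 1 base, and that of Sesn1 2 mismatches and a spacer of 3 bases, in the second of its 2 windows. These are matches of letters only, and the windows are short, so sites elsewhere in a gene were not searched.

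Total counts ranged from 10989843 to 12752604 per library. Markers of retinal neurons were present in every library: the 5 cone genes listed summed to 718 to 888 CPM and the 4 amacrine cell genes to 564 to 657 CPM, counts scaled per library by its size and a trimmed-mean factor, in the 10 libraries. AAV2-GFP replicate 1 stood apart, with 232 CPM summed over 10 microglia and macrophage markers against 25.2 to 44.9 CPM in the other AAV2-GFP mice and 21.2 to 28.9 CPM with AAV206-GFP. The 10 interferon-induced genes listed summed to 448 CPM in AAV2-GFP replicate 1 and 609 CPM in replicate 4, against 82.5 to 150 CPM in replicates 2, 3 and 5 and 85.4 to 109 CPM with AAV206-GFP. Results that rest on these libraries are given with and without them.

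Of the 9 tested p53 target genes, 1 rose with AAV206-GFP, the metabolic stress gene Sesn1, and none fell, in the edgeR quasi-likelihood test with p-values adjusted over all 15539 tested genes (Benjamini-Hochberg, threshold 0.05). That is 11.1% of the tested members, where 11.2% of all tested genes passed, 5.95% as higher and 5.30% as lower. The groups did not overlap in 1 member, again Sesn1, where they did not overlap in 9.78% of all tested genes (5.41% with AAV206-GFP above and 4.36% with it below). At an unadjusted p under 0.05 there were 3 members (Sesn1, Bax and Cdkn1a), where 28.0% of all genes reached that level. The median log2 ratio (log2 fold change) of AAV206-GFP to AAV2-GFP over the 9 members was 0.02 and over all tested genes -0.0095, and 5 members had positive and 4 negative values. For 6 of the 9 the estimate was within 10% of no change, as for 6877 of the 15539 genes. The summed level of the members was 396 ± 10.6 CPM in the AAV2-GFP retinas and 397 ± 13.6 CPM in the AAV206-GFP retinas (SD, n = 5). In bulk tissue, fewer cells of a type and less RNA per cell cannot be told apart.

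**Figure D1:**
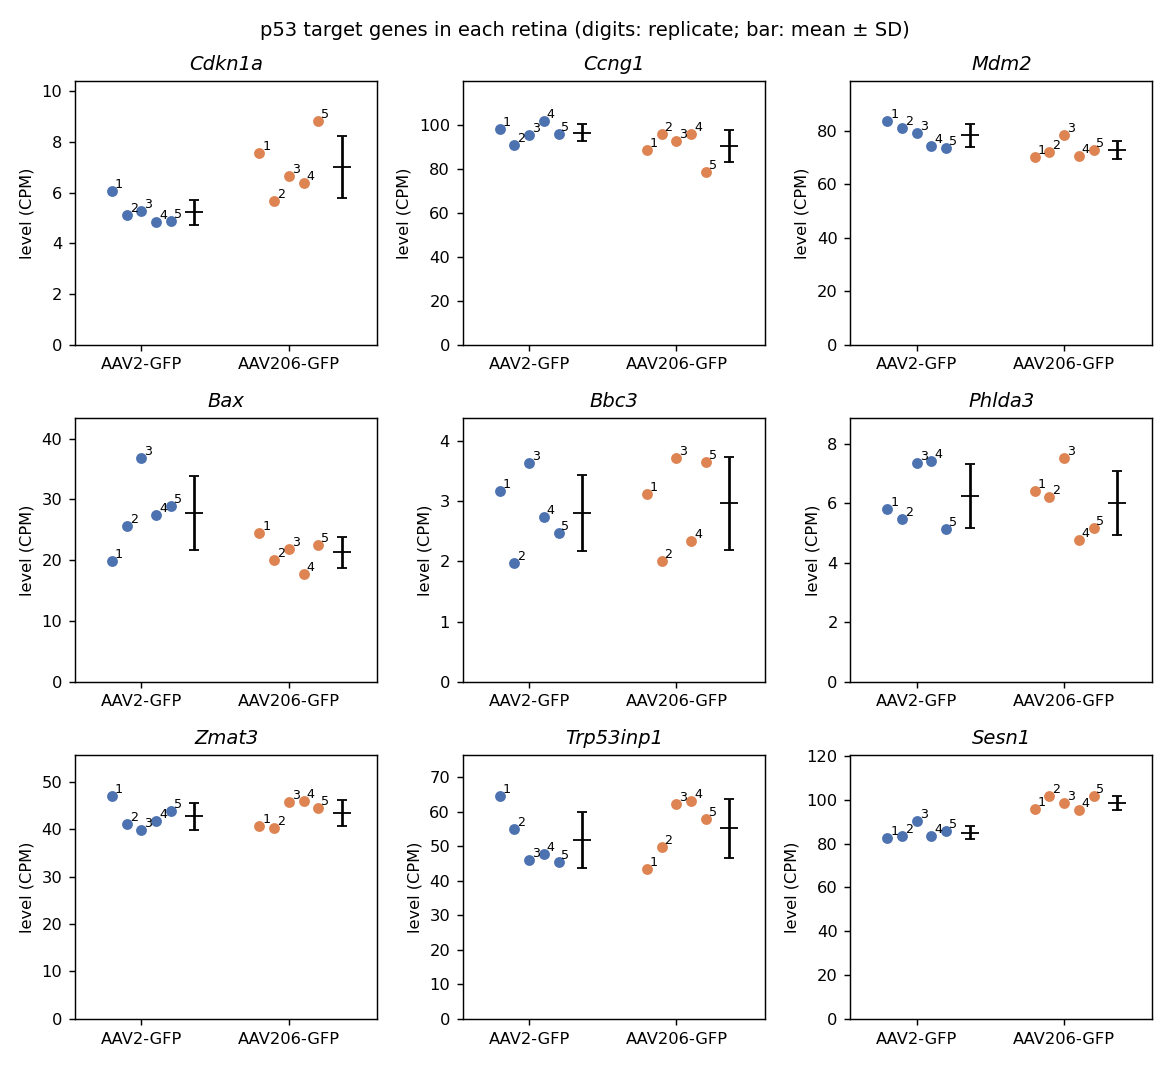
Level of each tested p53 target gene in CPM (vertical axes, from 0) in the 5 AAV2-GFP (blue) and 5 AAV206-GFP (orange) retinas; digits are replicate numbers and bars are mean ± SD. Sesn1 is the gene whose groups do not overlap, from 82.5 to 90.2 CPM with AAV2-GFP and from 95.4 to 102 CPM with AAV206-GFP.

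Per length, the members spanned a wide range of levels. On the scale of CPM per kilobase of merged exons, the mean level over the 10 libraries was highest for Ccng1 (26.6), followed by Sesn1 (23.1), Bax (15.5), Mdm2 (14.9), Trp53inp1 (8.26), Phlda3 (3.92), Zmat3 (3.77), Cdkn1a (1.72) and Bbc3 (1.36). The ranges over libraries overlapped between Ccng1 and Sesn1, Ccng1 and Bax, Sesn1 and Bax, Bax and Mdm2, Phlda3 and Zmat3, and Cdkn1a and Bbc3. These ranges alone do not settle the order within those pairs, whose genes were not compared library by library. The ranges did not overlap between Mdm2 and Trp53inp1, Trp53inp1 and Phlda3, or Zmat3 and Cdkn1a. Cdkn1a and Bbc3, the arrest and death effectors most often used to read out p53, were the lowest of the detected members in both groups, with 57 to 104 and 22 to 47 counts per library. Eda2r, which encodes a death-domain receptor for ectodysplasin A2, had no count in any library, which allows up to 0.232 to 0.274 CPM per library (3 counts; counting error only).

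Sesn1, an antioxidant and nutrient-sensing regulator that restrains mTORC1, rose with AAV206-GFP. Its level was 82.5, 83.3, 90.2, 83.6 and 85.6 CPM in AAV2-GFP replicates 1 to 5, and 95.6, 102, 98.3, 95.4 and 102 CPM in AAV206-GFP replicates 1 to 5. Every AAV206-GFP retina was above every AAV2-GFP retina. The means were 85.0 ± 3.10 and 98.6 ± 3.15 CPM (SD, n = 5), a difference of 0.21 ± 0.05 on the log2 scale (SE; edgeR adjusted p = 0.0206). This is an increase of 15.9%, with a 95% interval of 7.01 to 25.5%. The call was kept in 8 of 10 fits that left out 1 library and in 6 of 8 other alternative fits. It was lost without AAV2-GFP replicate 4 (edgeR adjusted p = 0.0597) and without AAV206-GFP replicate 2 (edgeR adjusted p = 0.0568). Among the 8 others, the fit without AAV2-GFP replicates 1 and 4 together was 1 that lost it (log2 ratio 0.18, edgeR adjusted p = 0.139). Over all 18 alternative fits the adjusted p of Sesn1 ran from 0.00287 to 0.139. Cone photoreceptor markers also separated the groups: the 5 genes summed to 718 to 831 CPM in AAV2-GFP and 832 to 888 CPM in AAV206-GFP retinas, 2 of 5 passed as higher, where 5.95% of all genes did, and none was at 0 throughout. For 5 of the 6 rod markers listed, the summed levels overlapped, at 17597 to 19534 and 16482 to 19184 CPM. Among these 5, 1 passed as higher, where 5.95% of all genes did, and none was at 0 throughout. The other rod marker is not reported here, so the 5 do not speak for rods as a whole. The 4 red blood cell markers also separated the groups, at 45.9 to 56.1 CPM with AAV2-GFP and 67.9 to 220 CPM with AAV206-GFP. All 3 tested passed as higher, again where 5.95% of all genes did, and none of the 4 was at 0 throughout. The part of these cells in the Sesn1 difference was not tested. Its relatives Sesn2 and Sesn3 did not pass, with log2 ratios of -0.22 and 0.0025 (adjusted p = 0.140 and 0.988 by edgeR).

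Cdkn1a, which encodes the cyclin-dependent kinase inhibitor p21, had the largest positive estimate among the tested members but did not pass. Its level was 6.06, 5.12, 5.26, 4.84 and 4.87 CPM in AAV2-GFP replicates 1 to 5, and 7.57, 5.66, 6.64, 6.37 and 8.82 CPM in AAV206-GFP replicates 1 to 5. Of the AAV206-GFP retinas 4 lay above the highest AAV2-GFP retina, and replicate 2 lay inside the AAV2-GFP range. On the log2 scale the difference was 0.42 ± 0.16 (SE; edgeR adjusted p = 0.0984), and the 95% interval of the change ran from 5.88 to 70.1% higher before adjustment for multiple testing. It did not pass in any of 18 alternative fits, whose adjusted p-values ran from 0.0765 to 0.197. Within AAV206-GFP the coefficient of variation was 17.4%, where counting alone gives 11.1%; within AAV2-GFP it was 9.47%, below the 12.7% of counting alone. The genes with the most similar course over the 10 libraries were Traf3ip3, Gm7694 and 3110082I17Rik, whose centred log2(CPM + 1) values differed from those of Cdkn1a by 0.082, 0.083 and 0.095 on average, where the SD of Cdkn1a was 0.246. The related inhibitors Cdkn1b and Cdkn1c did not pass either, with log2 ratios of -0.16 and 0.26 (adjusted p = 0.114 and 0.215 by edgeR).

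Ccng1 encodes cyclin G1, an abundant p53 target that recruits a phosphatase to Mdm2. Its level was 98.1, 90.8, 95.5, 102 and 95.9 CPM in AAV2-GFP replicates 1 to 5, and 88.5, 95.8, 92.8, 95.6 and 78.7 CPM in AAV206-GFP replicates 1 to 5. The groups overlapped, with AAV206-GFP replicate 5 the lowest of all. On the log2 scale the difference was -0.09 ± 0.06 (SE; edgeR adjusted p = 0.354). With 928 to 1259 counts in each library, its interval was narrow, from -0.23 to 0.04 on the log2 scale.

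Mdm2, the ubiquitin ligase that degrades p53 and is itself a p53 target, was at 83.5, 80.9, 79.2, 74.5 and 73.4 CPM in AAV2-GFP replicates 1 to 5, and at 70.0, 72.1, 78.3, 70.5 and 72.7 CPM in AAV206-GFP replicates 1 to 5. AAV206-GFP replicate 3 lay inside the AAV2-GFP range and the other AAV206-GFP retinas below it. On the log2 scale the difference was -0.11 ± 0.06 (SE; edgeR adjusted p = 0.260), with an interval from -0.23 to 0.02. A rise of Mdm2 above 1.45% with AAV206-GFP thus lay outside the 95% interval of this comparison. Its partner Mdm4 was at 207 ± 12.6 and 216 ± 16.4 CPM (SD, n = 5), and p53 itself (Trp53) at 12.3 ± 2.29 and 13.5 ± 1.13 CPM (SD, n = 5), with edgeR adjusted p-values of 0.574 and 0.535.

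**Figure D2:**
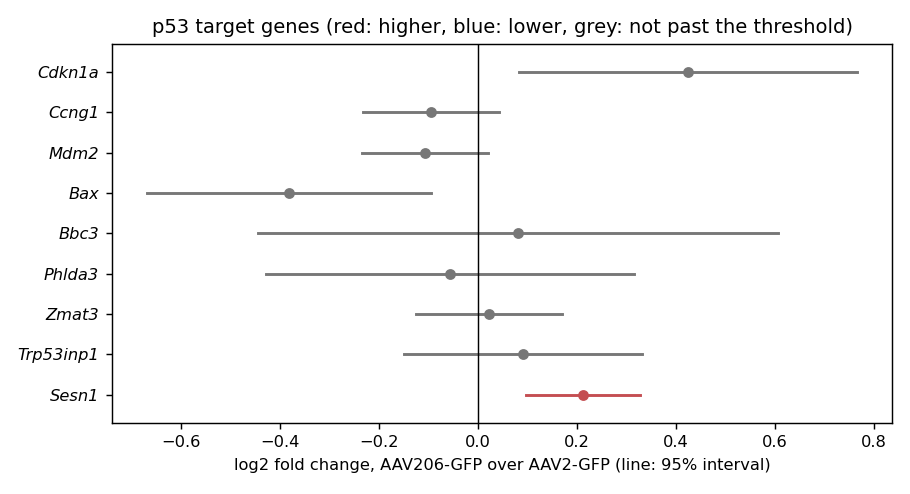
Log2 ratio of each tested p53 target gene (horizontal axis, AAV206-GFP over AAV2-GFP; lines are 95% intervals before adjustment). Sesn1, in red, passed the adjusted threshold at 0.21; the widest interval belongs to Bbc3, from -0.44 to 0.61.

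Bax and Bbc3 act at the mitochondrion: Bbc3 (PUMA) neutralises survival proteins of the BCL2 family, and Bax then opens the outer membrane. Bax was at 19.9, 25.6, 36.7, 27.3 and 28.9 CPM in AAV2-GFP replicates 1 to 5, and at 24.5, 19.98, 21.8, 17.7 and 22.5 CPM in AAV206-GFP replicates 1 to 5. AAV2-GFP replicates 2 to 5 were above every AAV206-GFP retina, while replicate 1 lay within the AAV206-GFP range. On the log2 scale the difference was -0.38 ± 0.14 (SE; edgeR adjusted p = 0.0788). Without AAV2-GFP replicate 1 Bax passed as lower with AAV206-GFP (log2 ratio -0.48, edgeR adjusted p = 0.0157), and likewise without AAV2-GFP replicates 1 and 4 (-0.52, edgeR adjusted p = 0.0236). Without AAV2-GFP replicate 3, its highest library, the log2 ratio was -0.26, and over 18 alternative fits the adjusted p ran from 0.0157 to 0.202. Its coefficient of variation within AAV2-GFP was 22.0%, where counting alone gives 5.49%.

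Bbc3 ranged from 1.98 to 3.63 CPM with AAV2-GFP and from 2.01 to 3.71 CPM with AAV206-GFP, so the groups covered nearly the same range. Its log2 ratio was 0.08 ± 0.25 (SE; edgeR adjusted p = 0.865), and changes between -26.5% and 52.2% lay inside the interval. It had 22 to 47 counts per library, and its coefficients of variation were 22.7 and 25.9%, where counting alone gives 17.3 and 17.1%. Ganglion cell injury genes, some of which are known to act upstream of Bbc3 after axon injury, separated the groups: the 8 listed genes summed to 139 to 166 CPM with AAV2-GFP and 108 to 126 CPM with AAV206-GFP, and 3 of the 8 (Atf3, Jun and Ddit3) passed as lower, with none at 0 throughout. That is 37.5%, where 5.30% of all genes passed as lower; the groups did not overlap with AAV206-GFP below in 3 of the 8 and in 4.36% of all genes. Their part in the Bax and Bbc3 values was not tested. Of the 16 other BCL2 family and caspase partners listed, 15 were tested and 1, Cycs (cytochrome c), fell with AAV206-GFP, or 6.67% where 11.2% of all genes passed and 5.30% passed as lower. Cycs went from 71.5 ± 9.27 to 58.7 ± 5.16 CPM (SD, n = 5; log2 ratio -0.29, edgeR adjusted p = 0.0474). That call was kept in 1 of 10 fits that left out a library (edgeR adjusted p from 0.0180 to 0.116), and Cycs shared reads with other genes in all 10 libraries. The survival genes Bcl2 and Bcl2l1 had log2 ratios of -0.01 and 0.04 (adjusted p = 0.955 and 0.775 by edgeR).

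The other 3 tested members did not pass, and each estimate was within 10% of no change. Phlda3, which competes with AKT for membrane lipids, ranged from 5.13 to 7.42 CPM with AAV2-GFP and from 4.75 to 7.50 CPM with AAV206-GFP (log2 ratio -0.06 ± 0.18, SE; edgeR adjusted p = 0.870). Zmat3, an RNA-binding zinc-finger protein that alters splicing, ranged from 39.9 to 47.1 and from 40.3 to 45.9 CPM (log2 ratio 0.02 ± 0.07, SE; edgeR adjusted p = 0.867). A change of Zmat3 below -8.34% or above 12.5% lay outside its interval. Trp53inp1, a stress protein that promotes autophagy and p53 phosphorylation, was at 64.6, 55.1, 46.1, 47.8 and 45.5 CPM in AAV2-GFP replicates 1 to 5 and at 43.2, 49.6, 62.2, 63.0 and 57.7 CPM in AAV206-GFP replicates 1 to 5. It varied about as much within each group (coefficients of variation 15.7 and 15.4%, where counting alone gives 4.05 and 3.98%) and overlapped widely (log2 ratio 0.09 ± 0.11, SE; edgeR adjusted p = 0.638).

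Across libraries, no retina was high for the whole list. AAV2-GFP replicate 1, the library rich in immune transcripts, was the highest of its group for 4 of the 9 members (Cdkn1a, Mdm2, Zmat3 and Trp53inp1) and the lowest for 2 (Bax and Sesn1). AAV206-GFP replicate 3 was the highest of its group for 3 members (Mdm2, Bbc3 and Phlda3), and AAV206-GFP replicate 4 the highest for 2 and the lowest for 3. The largest deviation from a member's mean over the 10 libraries was 0.59 for Bax in AAV2-GFP replicate 3, in log2(CPM + 1), followed by 0.48 for Cdkn1a in AAV206-GFP replicate 5.

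**Figure D3:**
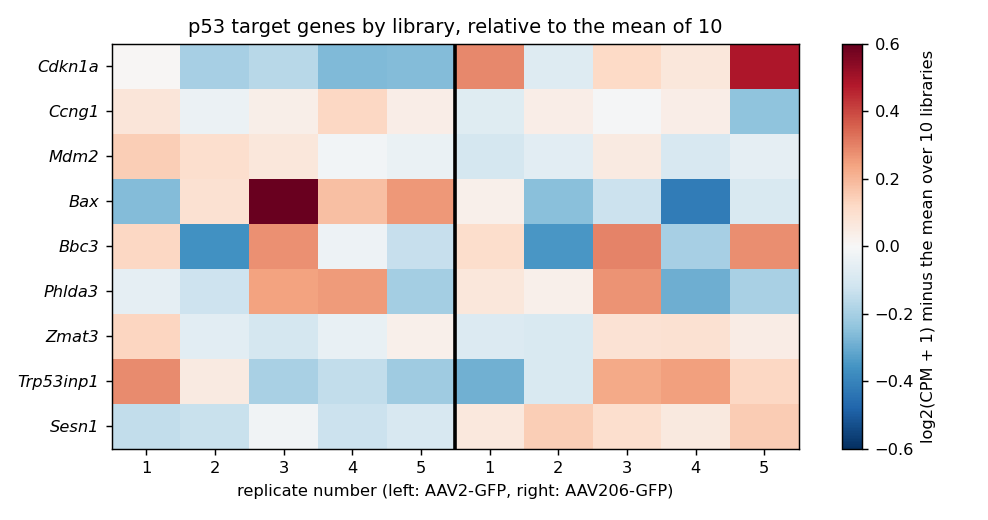
Each tested p53 target gene (rows) in each library (columns), coloured by log2(CPM + 1) minus the gene's mean over the 10 libraries. No column is red or blue throughout; Bax in AAV2-GFP replicate 3 (0.59) and Cdkn1a in AAV206-GFP replicate 5 (0.48) are the highest cells.

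**Figure D4:**
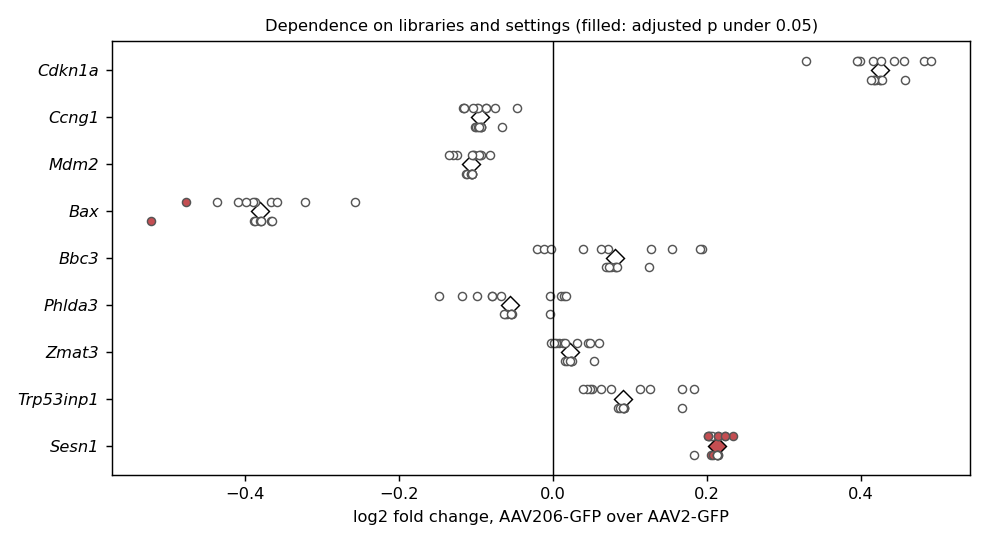
Log2 ratio of each member (horizontal axis) in the reported fit (diamonds), in the 10 fits that left out 1 library (upper circles) and in 8 other alternative fits (lower circles); filled symbols have an adjusted p under 0.05. Filled symbols occur for Sesn1 and, in 2 fits without AAV2-GFP replicate 1, for Bax.

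Among 40 further p53 target genes, 35 were tested, 4 fell with AAV206-GFP and none rose. That is 11.4% of those tested, where 11.2% of all genes passed and 5.30% passed as lower, and the median log2 ratio was -0.03. Hexim1, an inhibitor of the elongation factor P-TEFb, fell from 98.2 ± 4.02 to 65.7 ± 7.91 CPM (SD, n = 5), a difference of -0.58 ± 0.08 on the log2 scale (SE; edgeR adjusted p = 0.000195). Pltp, a phospholipid transfer protein, fell from 19.8 ± 1.34 to 11.3 ± 2.30 CPM (log2 ratio -0.81, edgeR adjusted p = 0.000858), with reads shared with other genes in 9 libraries. Ptp4a3, a phosphatase, fell from 493 ± 27.0 to 398 ± 44.2 CPM (log2 ratio -0.31, edgeR adjusted p = 0.0142). In these 3 of the 35 tested genes the groups did not overlap, with AAV206-GFP below. Over all tested genes that held for 4.36%, and for 9.78% in either direction. Tap1, the peptide transporter of antigen presentation, which interferon also induces, was at 65.6 and 26.9 CPM in AAV2-GFP replicates 1 and 4 and between 1.98 and 5.03 CPM in the other 8 libraries. Its log2 ratio was -2.64 (edgeR adjusted p = 0.0304) with those 2 libraries and -0.12 without them (edgeR adjusted p = 0.849), and leaving them out left 2 of the 4 calls, since Ptp4a3 (edgeR adjusted p = 0.0630) was lost as well. Over 18 alternative fits the adjusted p ran from 0.00374 to 0.849 for Tap1 and from 0.000825 to 0.0630 for Ptp4a3.

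Of 6 classic damage-responsive genes in that list, 3 did not pass and 3 could not be tested. Gadd45a (22.6 ± 1.78 and 24.1 ± 1.77 CPM, with reads shared with other genes in all 10 libraries), Btg2 (88.7 ± 3.73 and 91.1 ± 10.7 CPM) and the p53-reversing phosphatase Ppm1d (62.2 ± 3.10 and 54.4 ± 5.55 CPM; SD, n = 5) did not pass (edgeR adjusted p = 0.505, 0.786 and 0.0984). Gdf15, Fas and Pmaip1, a secreted stress cytokine, a death receptor and a BH3-only protein, were too low to be tested, at no more than 0.851, 1.90 and 1.81 CPM in any library. Of the 18 genes listed for p53, its relatives and its regulators, 15 were tested and none passed, where 11.2% of all genes did. In edgeR 2 of the 15 had an unadjusted p under 0.05 (Hipk2 and Rpl11, which share reads with other genes in 9 and 8 libraries), where 28.0% of all genes did, and DESeq2 and limma-voom also gave 0.

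DNA damage sensing and signalling genes, which act before p53, changed in both directions. Of 25 genes listed, 24 were tested, 4 rose and 2 fell with AAV206-GFP, which is 25.0% where 11.2% of all genes passed, and the median log2 ratio was 0.06. Without AAV2-GFP replicates 1 and 4, 4 of the 24 passed, or 16.7% where 6.18% of all genes passed. Xrcc5 (Ku80), which with Xrcc6 (Ku70) caps double-strand breaks, was at 15.0 to 17.5 CPM with AAV2-GFP and 20.3 to 26.8 CPM with AAV206-GFP, a difference of 0.53 ± 0.10 on the log2 scale (SE; edgeR adjusted p = 0.00238). Xrcc6 was at 20.6 to 27.2 and 26.4 to 32.7 CPM (log2 ratio 0.31, edgeR adjusted p = 0.04999, just under the threshold); it kept its call in 1 of 10 fits that left out a library (edgeR adjusted p from 0.0205 to 0.125) and shared reads with other genes in all libraries. Mre11a, the nuclease of the break-sensing MRN complex, was at 23.1 to 31.2 and 31.6 to 38.7 CPM (log2 ratio 0.44, edgeR adjusted p = 0.00970; 0.0701 without AAV2-GFP replicates 1 and 4, the highest of 18 alternative fits, whose lowest was 0.00118). Brca2, which acts in repair by homologous recombination, was at 12.4 to 16.6 and 19.0 to 28.5 CPM (log2 ratio 0.62, edgeR adjusted p = 0.00417). The groups did not overlap in 5 of the 24 tested genes. In 3 AAV206-GFP was above (Xrcc5, Mre11a and Brca2) and in 2 below (H2afx and Atrip). Over all tested genes they did not overlap in 9.78%, with AAV206-GFP above in 5.41% and below in 4.36%.

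In the opposite direction, H2afx, the histone variant that is phosphorylated around breaks, was at 41.0 to 53.9 CPM with AAV2-GFP and 27.4 to 38.8 CPM with AAV206-GFP, a difference of -0.54 ± 0.10 on the log2 scale (SE; edgeR adjusted p = 0.00323). Atrip, the partner of the kinase ATR, was at 68.4 to 80.8 and 55.0 to 63.7 CPM (log2 ratio -0.34, edgeR adjusted p = 0.003495), with reads shared with other genes in all 10 libraries. Of the kinase genes named, Atm was at 34.6 ± 7.50 and 38.5 ± 5.89 CPM (SD, n = 5; edgeR adjusted p = 0.472) and did not pass, and Chek2 was too low to be tested, at no more than 1.08 CPM. The part of cone, red blood cell and ganglion cell injury transcripts, whose sums also differed between the groups without overlap, in these values was not tested.

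**Figure D5:**
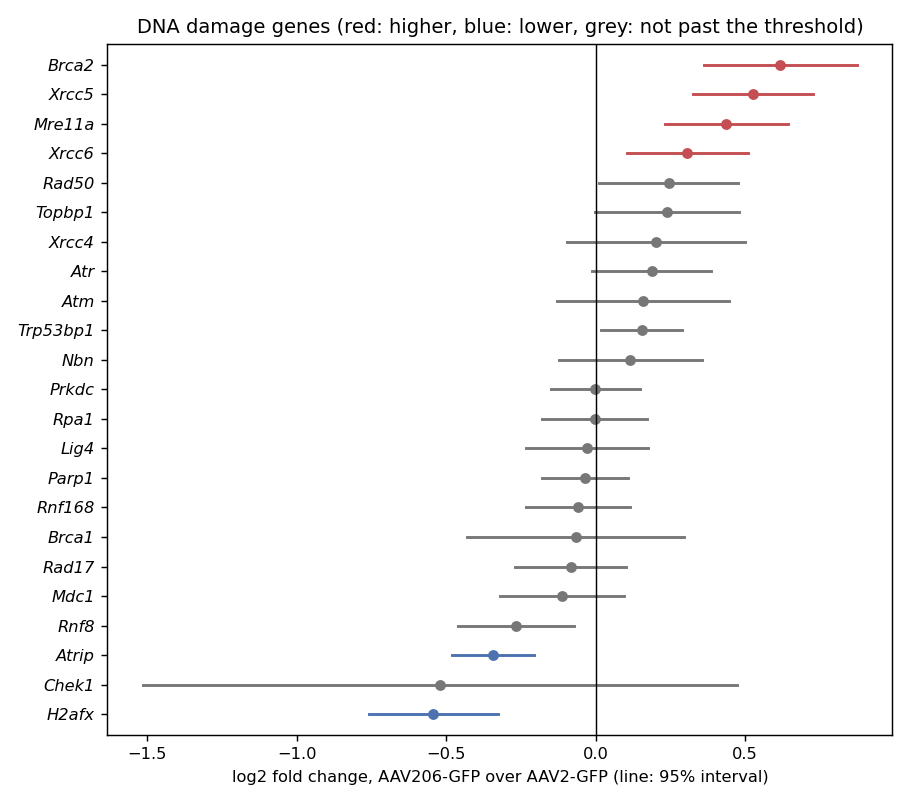
Log2 ratio of 23 of the 24 tested DNA damage genes (horizontal axis, AAV206-GFP over AAV2-GFP; lines are 95% intervals before adjustment), in order of size. The 4 red genes (Brca2, Xrcc5, Mre11a and Xrcc6) passed as higher and the 2 blue genes (Atrip and H2afx) as lower.

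Genes of the dividing cell cycle, which p53 lowers through p21, were mostly near the limit of detection. Of 17 listed, 8 were tested and 1 passed, or 12.5% where 11.2% of all genes passed. Cdc25c, a phosphatase that starts mitosis, fell from 1.88 ± 0.629 to 0.452 ± 0.195 CPM (SD, n = 5), a difference of -2.03 ± 0.38 on the log2 scale (SE; edgeR adjusted p = 0.00305). Its AAV206-GFP levels, 0.269 to 0.776 CPM, were close to the level of 3 counts, so the size of this change is imprecise. Mki67 was not tested; it was at 5.61 CPM in AAV2-GFP replicate 1, the library rich in immune transcripts, and at no more than 0.763 CPM in any other.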

How the data were processed

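RNA was sequenced from 10 retinas, 5 with AAV2-GFP and 5 with AAV206-GFP, assigned from the library titles. Per the labels' protocols, Trizol was used for extraction, the NEBNext Ultra kit for library construction, and a NovaSeq instrument for paired reads of 150 bases. The submitters' processing notes name STAR 2.7.10b, RSEM 1.3.1 and the build mm10. The annotation release and strand setting are not given in the sources used here, and 4981 of the 57010 row identifiers have no name in GENCODE M21, so coordinates are given only for RefSeq promoters. The values the authors deposited are unscaled estimated counts of reads for each gene, and 5.95% of them carried decimals. They were rounded to whole numbers, and genes with decimals in many libraries are described as sharing reads. Cdkn1a, Bax and Phlda1 had decimals in 1 library each, Jun and Cdc25c in 2, and Cdkn1c in 4; Traf3ip3 had them in all 10.

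Counts were fitted over the whole table with edgeR 4.0.16 (R 4.3.3): filterByExpr with a minimum count of 10, TMM scaling and a quasi-likelihood F test without covariates, with Benjamini-Hochberg adjustment over 15539 genes. Standard errors are the absolute log2 ratio over the square root of F. Levels are CPM on TMM-scaled library sizes, and lengths are merged exons of GENCODE M21. DESeq2 1.42.0 and limma-voom (limma 3.58.1) served as alternatives, and the fit was tested on simulated data. A level of 3 counts, at these depths 0.232 to 0.274 CPM, was taken as the floor.

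The members and lists were chosen with earlier results of these data known. All members were named; from the other lists, genes past the threshold (at most 8 a list) and 13 genes fixed by name. Genes called similar to Cdkn1a had the smallest mean absolute difference in centred log2(CPM + 1), among genes with at least 0.8 times its SD. Hipk2, Rpl11, Sesn2, Sesn3, Cdkn1b, Cdkn1c and marker genes were named after their values were seen. No pairing by replicate number was seen: deviations of same-numbered libraries correlated between -0.05 and 0.04 across genes. These values do not exclude a pairing with small effects. Of the DNA damage list, 1 gene is counted but its own values are not reported here.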

Additional observations from a re-analysis of the deposited data

Results flagged for a closer look

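In 4 of 70 groups of 5 retinas examined over the named genes, 1 retina lay far from the others of its group, by the gap to its nearest neighbour as a share of the whole span (Dixon's test at 95%, critical value 0.71); 3.5 would be reached by chance. None of the 4 was a member of the p53 target list. Btg2 was at 95.3 CPM in AAV2-GFP replicate 4 against 86.4 to 88.3 CPM in the others of its group. Mki67 was at 5.61 CPM in AAV2-GFP replicate 1 against 0.0854 to 0.309 CPM, and at 0.763 CPM in AAV206-GFP replicate 5 against 0 to 0.168 CPM. Ptp4a3 was at 542 CPM in AAV2-GFP replicate 1 against 478 to 486 CPM.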

How the results depend on the processing

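Cdkn1a, Mdm2, Ccng1 and Trp53inp1 kept their direction and stayed short of the threshold in all 18 alternatives each. Over the fits that left out 1 library, the log2 ratio ran from -0.021 to 0.19 for Bbc3, from -0.15 to 0.017 for Phlda3 and from -0.0026 to 0.060 for Zmat3, so the sign of these 3 was not resolved; it ran from -0.48 to -0.26 for Bax and from 0.20 to 0.23 for Sesn1. In the same fits the number of genes past the threshold was 0 to 2 of the members, 0 to 1 of the BCL2 family and caspase partners and 991 to 1912 of all tested genes. The lowest of these, 991, came without AAV2-GFP replicate 4; counts of 1074 and 1056 came without AAV206-GFP replicates 2 and 4. Without AAV2-GFP replicates 1 and 4, Sesn1 had a log2 ratio of 0.18 and did not pass, Bax passed at -0.52, and the counts were 2 for further p53 targets, 0 for BCL2 family partners and 985 for all genes. With the replicate number as a block, Sesn1 had 0.21 (edgeR adjusted p = 0.0617), 0 members and 0 BCL2 family partners passed, and 1085 genes passed in all. The replicate numbers come from the library titles, and no pairing by them was seen. With limma-voom 0 BCL2 family partners passed, and with a filter of 1 CPM in 5 libraries 0 cell cycle genes, since Cdc25c was then not tested. Scaling by library totals or by RLE factors changed no direction of a member. The cause of the other changes was not tested. Counts were lowest for Bbc3, Phlda3 and Cdkn1a, with 22 to 104 per library.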

Other observations

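Among 13 paralogs and ligands of the members, 11 were tested and 1 rose with AAV206-GFP, or 9.09% where 11.2% of all genes passed. Zmat1, a zinc-finger relative of Zmat3, went from 29.0 ± 1.42 to 37.3 ± 5.11 CPM (SD, n = 5), a difference of 0.36 ± 0.09 on the log2 scale (SE; edgeR adjusted p = 0.0194), and every AAV206-GFP retina was above every AAV2-GFP retina. It shared reads with other genes in 4 libraries. Phlda1, a relative of Phlda3, was at 11.5 ± 1.45 and 8.77 ± 1.11 CPM (SD, n = 5) with a log2 ratio of -0.39 that missed the threshold (edgeR adjusted p = 0.0689). Eda, a ligand gene whose A2 isoform binds the receptor encoded by Eda2r, was at 0.977 ± 0.318 and 0.981 ± 0.369 CPM (SD, n = 5).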
